A study of Mus musculus with 131 samples.

Results

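Solute carriers are the membrane proteins that move amino acids, sugars, nucleosides, metals, vitamins and ions into cells and between their compartments, and their genes were followed here in single cells of reconstructed mouse blastocysts and, by methylation, in cultured stem cells. The members were taken by name, as genes called Slc followed by a family number, a letter and a member number. The glucose carriers Slc2a1 and Slc2a3 were left out. Of the 254 genes with such a name, 252 were left after that, and 132 from 43 families reached 10 CPM (the gene's part of all reads of the group, in the unit usual for sequencing counts) in the reads summed over the host or the injected cells. The expression table held 13927 genes. The other 120 carriers lay below the threshold. Because the members were chosen on their level in these cells, their levels are given as a description, with no test.

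The single cells came from blastocysts at E4.0, made by injecting embryonic stem cells (ESCs) with an Actin-RFP transgene into embryos with an Actin-GFP transgene at the eight-cell stage, all of strain C57BL/6J. The 40 GFP cells were therefore host cells and the 55 RFP cells descended from the injected line. No label named an embryo for any cell, so each colour was treated as 1 sample, and the intervals below cover counting error of reads only. The methylation data were 1 bisulfite library each of wild-type mouse embryonic fibroblasts (MEF) at p2, of ESCs with the Gjb2-35delG mutation on both alleles at p7, and of Actin-RFP ESCs at p10. How many passages the ESCs injected for these blastocysts had gone through was not given in the sources used here.

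Transport across the cell surface follows a few principles that the families share. Some carriers only let a solute run down its own gradient, others couple it to sodium or proton entry, and exchangers trade one solute for another. The preimplantation embryo lives on the nutrients of the tract fluid and its blastocoel, and the trophectoderm, the outer epithelium of the blastocyst, faces that fluid, while the epiblast inside gives rise to the fetus. Most carriers of the Slc25 family sit in the inner mitochondrial membrane, those of Slc35 in the Golgi and endoplasmic reticulum, and most of the others in the plasma membrane or in vesicles.

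The host cells held 223.58 M reads in all, 1.996 to 8.32 M per cell, and the injected cells 311.25 M, 0.518 to 9.56 M per cell. Lineage differed with origin. All 13 trophectoderm markers were lower in the RFP cells, with summed levels of 9105 CPM in GFP and 189 CPM in RFP cells, and per cell from 25.2 to 16951 CPM (median 9509) against 0.627 to 3688 CPM (median 74.2). Of 9 measured epiblast markers 7 were higher in the RFP cells, with 506.5 CPM in GFP and 2116 CPM in RFP cells, and 11 of 12 primitive endoderm markers were lower, at 552 against 20.2 CPM, with no RFP read of Pdgfra, Sox7 or Cubn. Most of that GFP sum was Dab2 (371 CPM) and Gata6 (112 CPM). Gata4, Sox17, Pdgfra, Sox7, Foxa2, Cubn and Amn stood at 1.40 to 5.45 CPM in GFP cells. Each of these reached 10 CPM in only 1 to 3 GFP cells. Of 4 measured fibroblast markers, which feeder cells would carry, 2 were higher in the RFP cells, at 5.56 against 100 CPM in sum, nearly all of it Fn1, and Col1a2 and Thy1 had no GFP read. Host or injected origin and lineage cannot be told apart in these cells, and the part of these other cell types in the results was not tested. RFP cells 6 and 14 stood apart in the authors' scaling, with 53.2% of the RFP sum of deposited values and 0.658% of the RFP reads, and leaving them out left the counts of members at 30 higher and 52 lower. GFP cell 27 went against the other host cells. Its trophectoderm markers summed to 25.2 CPM, against 4512 CPM or more in each of the other host cells, and it had the highest epiblast sum (1871 CPM, the next 1002 CPM), the highest fibroblast sum (531 CPM, the next 55.5 CPM) and the highest share of mitochondrially encoded reads (14.9%, the next 6.23%) of the host cells. Without it, 31 members were higher and 51 lower, because Slc25a40 went from 0.92 to 1.03 and Slc9a8 from -1.13 to -0.98. More than 10% of the reads were mitochondrially encoded in that cell and in 4 RFP cells. Among the RFP cells, RFP cell 55 had the highest trophectoderm sum (3688 CPM, the next 1174 CPM). Its primitive endoderm sum was the highest too (731 CPM, the next 178 CPM). It was kept in the counts. The members took 0.361 to 1.28% of a GFP cell's reads (median 0.843%) and 0.00753 to 1.12% of an RFP cell's (median 0.732%). A GFP cell had a read of 27 to 97 members (median 59) and an RFP cell of 8 to 86 (median 43). With each cell thinned to 500000 reads the medians were 53 and 32.

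The promoters of 5 members frame the methylation results further on, because they differ in CpG content and their genes went either way in the cells. The 250 bases upstream of the RefSeq start are written from 5′ to 3′ on the strand of the gene, in build GRCm38.p6, with each CpG, the dinucleotide that carries methylation, in capitals.
Slc38a2: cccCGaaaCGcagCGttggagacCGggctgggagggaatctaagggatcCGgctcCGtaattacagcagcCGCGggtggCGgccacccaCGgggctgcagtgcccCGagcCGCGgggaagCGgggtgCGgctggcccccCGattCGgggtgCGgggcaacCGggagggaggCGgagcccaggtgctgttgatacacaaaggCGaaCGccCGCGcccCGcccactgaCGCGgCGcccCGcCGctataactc
Slc35g1: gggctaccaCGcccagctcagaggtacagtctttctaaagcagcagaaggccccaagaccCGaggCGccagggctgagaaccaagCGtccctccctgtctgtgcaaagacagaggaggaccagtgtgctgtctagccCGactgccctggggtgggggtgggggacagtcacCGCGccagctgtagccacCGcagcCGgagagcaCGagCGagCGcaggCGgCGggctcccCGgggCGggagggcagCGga
Slc29a1: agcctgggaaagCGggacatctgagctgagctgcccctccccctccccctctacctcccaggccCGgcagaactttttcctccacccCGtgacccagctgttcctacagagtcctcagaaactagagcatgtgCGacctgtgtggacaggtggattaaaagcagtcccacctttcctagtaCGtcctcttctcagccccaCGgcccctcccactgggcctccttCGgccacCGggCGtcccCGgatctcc
Slc28a3: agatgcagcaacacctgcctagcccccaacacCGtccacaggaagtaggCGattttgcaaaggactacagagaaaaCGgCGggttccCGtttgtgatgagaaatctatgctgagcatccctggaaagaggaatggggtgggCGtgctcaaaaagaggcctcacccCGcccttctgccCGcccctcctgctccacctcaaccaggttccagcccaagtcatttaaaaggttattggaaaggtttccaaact
Slc24a5: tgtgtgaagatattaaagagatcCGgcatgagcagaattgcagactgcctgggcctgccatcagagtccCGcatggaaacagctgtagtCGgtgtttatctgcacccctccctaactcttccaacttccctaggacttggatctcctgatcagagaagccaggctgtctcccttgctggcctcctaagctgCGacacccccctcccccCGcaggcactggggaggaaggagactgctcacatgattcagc
They lie at chr15:96699729-96699978 on the minus strand (Slc38a2), chr19:38395730-38395979 on the plus strand (Slc35g1), chr17:45599619-45599868 on the minus strand (Slc29a1), chr13:58610878-58611127 on the minus strand (Slc28a3) and chr2:125067877-125068126 on the plus strand (Slc24a5). They hold 30, 17, 10, 8 and 5 CpGs in that order.

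Measured as the log2 of RFP over GFP cells, on CPM + 1, more carriers were low in the injected cells than high. Of the members, 30 (22.7%) were at least 1 higher in the RFP cells and 52 (39.4%) at least 1 lower, while 50 lay within 1. Over the 8184 genes of the table with the same 10 CPM in either group, the limits were passed upward by 26.3% and downward by 23.3%, and over all 13927 genes by 24.97% and 21.94%. The median was -0.62 over the members, 0.08 over all genes and 0.14 over the genes at 10 CPM or more. These shares are given as a description, since the members' levels chose them. The split was 19 higher and 59 lower by the mean of log2(CPM + 1) over cells, which moved the median of all genes at 10 CPM or more by -0.47, and 19 higher and 75 lower among 119 members by the deposited values summed as they are, which moved it by -0.94.

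**Figure D1:**
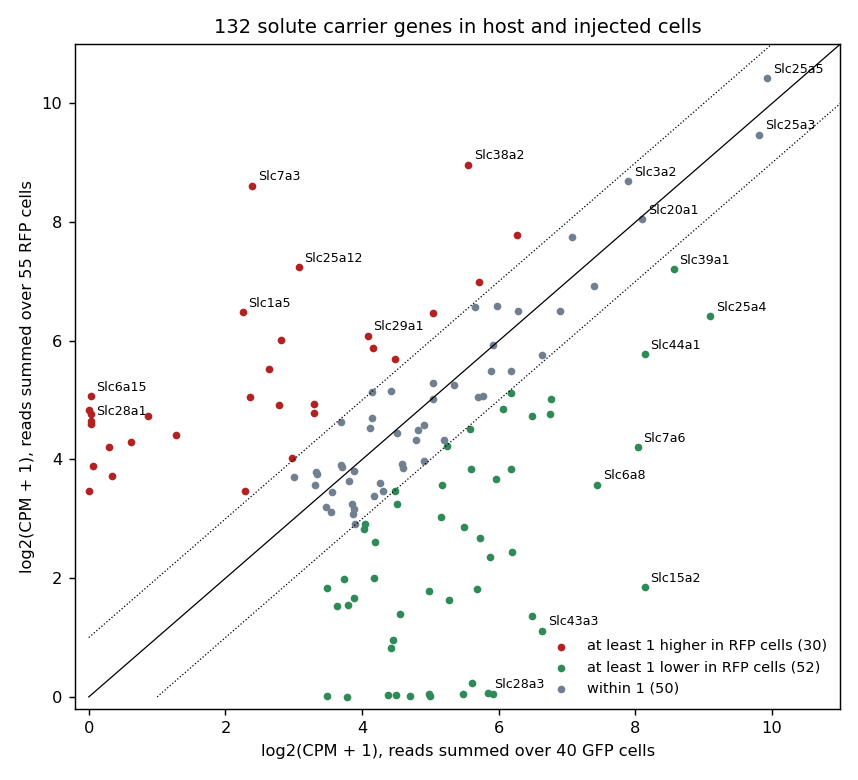
Level of each of the 132 solute carrier genes in the 40 GFP cells (x axis) and the 55 RFP cells (y axis), as log2(CPM + 1) of the reads summed over the cells. The solid line marks equal levels and the dotted lines a log2 difference of 1; 30 genes lie above the upper line and 52 below the lower one.

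Large differences ran both ways. Of the members, 17 were at least 3 higher and 25 at least 3 lower in the RFP cells. Of the 8136 genes at 10 CPM or more with a gene start read, 562 and 576 passed these limits. Among the members, 62 reached 10 CPM in both groups, 43 in the GFP cells only and 27 in the RFP cells only. That split is not set beside all genes, and nothing is read from it. Single cells weighed on some of these values. In 13 members 1 cell held more than 50% of the reads of the higher group. Leaving out the top cell of each member's higher group, while the lower group kept all its cells, moved 16 of the 82 members past the limit inside it, and left 25 higher and 41 lower. The 5 that then lay inside on the higher side were Slc18a1, Slc25a15, Slc25a30, Slc35f2 and Slc40a1, and the 11 on the lower side were Slc25a20, Slc25a44, Slc26a2, Slc35a5, Slc35f6, Slc37a3, Slc38a10, Slc39a6, Slc39a14, Slc52a3 and Slc9a8. Slc18a1, a vesicular monoamine carrier, went from 1.48 to -0.42 without RFP cell 22, which held 76.0% of its reads. Just above the threshold stood Slc50a1, Slc9a7 and Slc25a30, at 10.06, 10.05 and 10.1 CPM in their higher group. Just below it were Slc27a4 (9.67 CPM in GFP cells), Slc13a2 (9.64 CPM in GFP cells, no read in RFP cells) and Slc43a1 (9.45 CPM in RFP cells).

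Families were read by the directions of their members. Of the 23 families with 2 or more members, 12 had members past the limit in both directions, namely Slc1, Slc4, Slc6, Slc7, Slc9, Slc25, Slc28, Slc35, Slc38, Slc39, Slc44 and Slc46, with 82 members among them. A family with more members has more occasions to pass both limits, and 26.3% and 23.3% of all genes at 10 CPM or more passed them, so nothing is read from this count. Families 16, 17 and 19 had such members on the higher side only, families 5, 22, 30, 37 and 66 on the lower side only, and families 12, 20 and 31 had none. Levels are compared below within a gene and not between genes, because the table gave no gene lengths. The counts by class below are a description, to be read beside the 26.3% and 23.3% of all genes given above. Several classes hold few genes. Where a pair of levels stands without the names of the groups, the GFP cells come first.

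**Figure D2:**
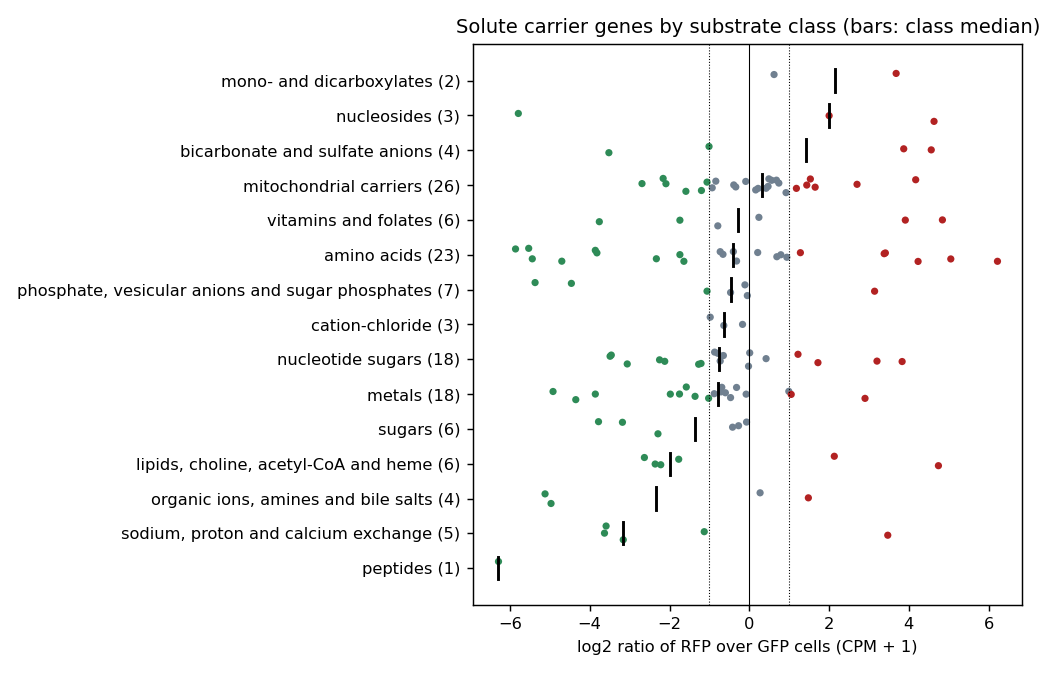
Log2 ratio of RFP over GFP cells (x axis, on CPM + 1) of each member by substrate class (rows, number of members in brackets). Points are genes, green at least 1 lower, red at least 1 higher and grey within 1, and the black bars are class medians, which run from -6.30 for the single peptide carrier to 2.15 for the pair of monocarboxylate carriers.

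Among the 23 genes of the amino acid families, 6 were at least 1 higher and 9 at least 1 lower in the RFP cells, with a median of -0.40. Their summed level was 1351 CPM in the GFP and 1778 CPM in the RFP cells. The class was drawn by family number, and it includes carriers of creatine (Slc6a8), taurine (Slc6a6) and purine nucleobases (Slc43a3).

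The cationic amino acid carrier Slc7a3, which brings in arginine and lysine, was the member with the highest ratio. It ran from 0 to 1698 CPM over the RFP cells with a median of 207 CPM, and from 0 to 156 CPM over the GFP cells with a median of 0. At 10 CPM or more were 44 of 55 RFP cells and 2 of 40 GFP cells. The summed level was 390 CPM (95% Poisson interval 388 to 392) in RFP and 4.26 CPM (3.99 to 4.54) in GFP cells, a log2 ratio of 6.22, and GFP cell 40 alone held 65.1% of the GFP reads. The groups overlapped only through the RFP cells with few or no reads and the 2 GFP cells above 10 CPM.

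Slc7a6, another member of the same family, mirrored it. This light chain exchanges cationic for neutral amino acids and works only when bound to the heavy chain Slc3a2. It ran from 0 to 768 CPM over GFP cells (median 241 CPM) and from 0 to 299 CPM over RFP cells (median 0), with 33 GFP and 7 RFP cells at 10 CPM or more. Summed, it was 260 CPM in GFP and 17.4 CPM in RFP cells, a log2 ratio of -3.82. Within the GFP cells, 31 had Slc7a6 without Slc7a3 at 10 CPM and 2 had both. Within the RFP cells, 37 had Slc7a3 without Slc7a6, 7 had both and 0 had Slc7a6 alone.

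The heavy chain Slc3a2 itself was read in both groups. It ran from 0 to 895 CPM in GFP cells (median 170 CPM) and from 0 to 2601 CPM in RFP cells (median 313 CPM), and its log2 ratio was 0.79. Its other light chains among the members lay within 1 as well. Slc7a5, which exchanges large neutral amino acids such as leucine, was 11.9 CPM in GFP and 23.7 CPM in RFP cells, and Slc7a7 7.03 and 11.99 CPM. Slc3a2 stood together with Slc7a6 at 10 CPM in 30 GFP and 5 RFP cells, with Slc7a5 in 6 GFP and 18 RFP cells, and with Slc7a7 in 1 GFP and 10 RFP cells. Taken by itself, Slc7a6 was at 10 CPM or more in 33 GFP and 7 RFP cells, Slc7a5 in 7 and 20, and Slc7a7 in 2 and 12. The joint counts go with these single counts, so nothing is read from them about which chains stand together. These are counts of RNA, and pairing of the proteins was not measured. Slc7a1, a housekeeping arginine carrier, lay within 1 at 28.9 and 23.03 CPM.

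The sodium-coupled neutral amino acid carriers of family 38 form a row on chromosome 15. Slc38a1 (chr15:96571418-96643438), Slc38a2 (chr15:96687392-96699728) and Slc38a4 (chr15:96994816-97055956, build GRCm38) are separated by 43.954 kb and 295.09 kb, and their log2 ratios were 1.28, 3.41 and -1.74. Slc38a2, which imports glutamine, alanine and other small amino acids, ran from 0 to 1902 CPM in RFP cells (median 398 CPM) and from 0 to 858 CPM in GFP cells (median 0.705 CPM). Of the RFP cells 48 were at 10 CPM or more and of the GFP cells 13, and the sums were 499 CPM (496 to 501) in RFP and 46.03 CPM (45.1 to 46.9) in GFP cells. The highest GFP cell was GFP cell 27, and without it the GFP sum was 38.5 CPM, the highest GFP cell 660 CPM and the ratio 3.66. Slc38a1, its closest relative in function, was 126 CPM in RFP and 51.4 CPM in GFP cells, with cell medians of 88.1 CPM in RFP and 27.2 CPM in GFP cells and a wide overlap of the groups. Slc38a4, an imprinted gene, went the other way, from 0 to 545 CPM in GFP cells (median 54.9 CPM) and from 0 to 293 CPM in RFP cells (median 0). In the RFP cells 36 had Slc38a2 without Slc38a4 at 10 CPM, 12 had both and 0 had Slc38a4 alone, whereas 16 GFP cells had Slc38a4 alone, 3 Slc38a2 alone and 10 both.

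Family 1 split between its glutamate and its neutral carriers. Slc1a5, a sodium-coupled exchanger of glutamine and other neutral amino acids, was 88.2 CPM in RFP and 3.76 CPM in GFP cells (log2 ratio 4.23), with 29 RFP and 3 GFP cells at 10 CPM or more and a highest RFP cell of 1553 CPM. Slc1a4, its sister for alanine, serine and cysteine, was 0.268 against 12.2 CPM, with RFP cell 28 holding 56.9% of the reads. Slc1a1, the glutamate and aspartate importer, was 25.1 CPM in GFP cells (24.5 to 25.8). In the RFP cells it rested on 2 reads, both in RFP cell 38, or 0.00643 CPM (0.000778 to 0.0232). Whether these were the mates of 1 read pair was not tested. It was at 10 CPM or more in 19 GFP cells and in 0 RFP cells. Slc1a1 and Slc1a5 stood together at 10 CPM in 2 GFP cells. In RFP cells they could not, since none had Slc1a1 at that level. In the RFP cells 41 of 55 held Slc7a3 and Slc38a2 together and 27 held Slc1a5 and Slc38a2 together. Slc38a2 by itself was at 10 CPM or more in 48 RFP cells, so nothing is read from these joint counts.

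In family 6, the sodium- and chloride-coupled carriers, 3 of 5 members were lower in the RFP cells, 1 was higher and 1 lay within 1. Slc6a13, which takes up GABA and taurine, was 59.2 CPM in GFP and 0.0386 CPM in RFP cells, and Slc6a14, which takes up most neutral and cationic amino acids, 43.7 against 0.0321 CPM. Neither reached 10 CPM in any RFP cell, and they did so in 20 and 14 GFP cells. The creatine carrier Slc6a8 ran from 0 to 872 CPM in GFP cells (median 154 CPM) and from 0 to 235 CPM in RFP cells (median 0), with sums of 173 and 10.9 CPM and a log2 ratio of -3.86. The taurine carrier Slc6a6 lay within 1, at 58.3 and 43.8 CPM. Slc6a15, a carrier of branched-chain amino acids, was the higher one, with 32.6 CPM in RFP and 0.0179 CPM in GFP cells. It was at 10 CPM or more in 11 RFP cells and 0 GFP cells, and RFP cell 17 held 32.6% of its reads. In the RFP cells 4 had Slc6a8 and 11 had Slc6a15 at 10 CPM, and none had both. With so few cells nothing is read from that, and in GFP cells none could have both.

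The nucleobase carrier Slc43a3, counted with the amino acids by its family, ran from 0 to 276 CPM in GFP cells (median 102 CPM) and from 0 to 47.4 CPM in RFP cells (median 0). Its sums were 98.6 and 1.16 CPM, a log2 ratio of -5.53. The peptide carrier Slc15a2, which imports di- and tripeptides with protons, had the lowest ratio of all members. It ran from 0 to 714 CPM in GFP cells (median 235 CPM), with 34 of 40 at 10 CPM or more, and reached that level in 1 RFP cell. That cell, RFP cell 30 at 163 CPM, held 92.3% of the RFP reads. The sums were 281 CPM (279 to 283) and 2.59 CPM (2.41 to 2.77), a log2 ratio of -6.30.

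**Figure D3:**
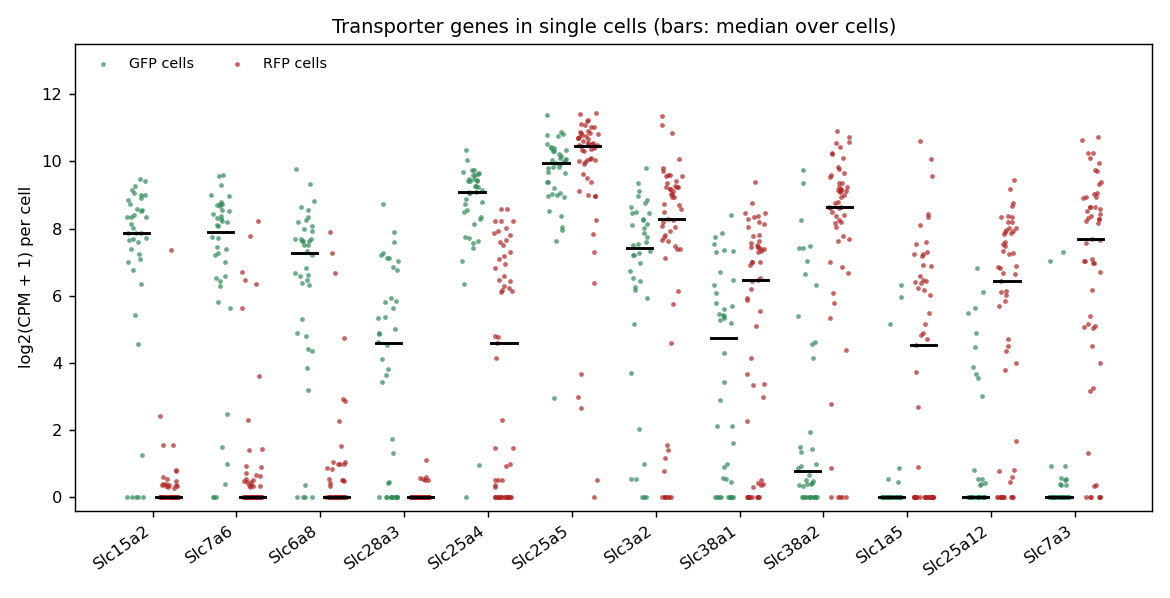
Level of 12 members in every single cell, as log2(CPM + 1), with GFP cells in green, RFP cells in red and black bars at the median over cells. Slc15a2, Slc7a6, Slc6a8 and Slc28a3 were high in most or many GFP cells and near 0 in most RFP cells, Slc38a2, Slc1a5, Slc25a12 and Slc7a3 the reverse, and Slc25a5, Slc3a2 and Slc38a1 overlapped widely.

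Of the nucleoside carriers, the 2 members of family 28 went opposite ways. Slc28a3, which concentrates purine and pyrimidine nucleosides with sodium, ran from 0 to 423 CPM in GFP cells (median 22.9 CPM) and never above 1.15 CPM in RFP cells, with sums of 56.6 and 0.0450 CPM and a log2 ratio of -5.79. Its relative Slc28a1, which prefers pyrimidine nucleosides, was at 0.0179 CPM in GFP and 24.2 CPM in RFP cells, a log2 ratio of 4.63, and its highest RFP cell stood at 413 CPM. At 10 CPM or more, 24 GFP cells had Slc28a3 and 0 had Slc28a1, and 12 RFP cells had Slc28a1 and 0 had Slc28a3. Neither gene reached that level in 16 GFP and 43 RFP cells. Slc29a1, the equilibrative carrier that works without sodium, was 15.99 CPM in GFP and 66.8 CPM in RFP cells, with 9 and 23 cells at 10 CPM or more. Its neighbour Slc35b2, 17.529 kb away on chromosome 17, differed by -0.02.

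Folate carriers went both ways as well. The proton-coupled folate carrier Slc46a1 was 72.4 CPM in GFP cells (median cell 32.2 CPM, highest 447 CPM) and 4.43 CPM in RFP cells. RFP cell 55, which had the highest trophectoderm sum of the RFP cells, held 81.0% of those RFP reads. The reduced folate carrier Slc19a1 had no read in any GFP cell and 27.6 CPM in RFP cells, at least 2060-fold higher than a floor of 3 reads over the GFP group. It reached 10 CPM in 10 RFP cells and had reads in 11. Slc46a3, a lysosomal member of the Slc46 family, was 17.6 CPM in RFP and 0.233 CPM in GFP cells. The thiamine carrier Slc19a2 lay within 1 at 31.9 and 37.9 CPM. The riboflavin carrier Slc52a3 was 12.3 and 2.98 CPM, and the vitamin C carrier Slc23a2 17.1 and 9.41 CPM. In all, 2 of the 6 genes of this class were at least 1 higher and 2 at least 1 lower.

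Of the 18 metal carriers, 8 were at least 1 lower and 2 at least 1 higher in the RFP cells, with a median of -0.79 and sums of 1137 and 577 CPM. Over all genes at 10 CPM or more, 23.3% were lower and 26.3% higher by that limit. Of the 8 lower ones 7 belonged to the zinc families Slc30 and Slc39, which also held 13 of the 18. Slc30a4 and Slc30a2, which load zinc into vesicles, were 30.4 against 0.0386 CPM and 50.1 against 2.53 CPM, and RFP cell 51 held 73.9% of the RFP reads of Slc30a2. Slc30a1, which exports zinc from the cell, was 88.5 against 25.7 CPM, and the importers Slc39a4 and Slc39a1 were 107 against 26.2 CPM and 376 against 147 CPM. Slc39a1 was nonetheless read in nearly every cell, at 10 CPM or more in 39 of 40 GFP and 45 of 55 RFP cells, with medians of 361 and 137 CPM. The zinc importer Slc39a10 differed the other way, at 5.21 against 45.3 CPM, with 5 and 19 cells at 10 CPM or more. The copper importer Slc31a1 (167 and 120 CPM) and the iron importer Slc11a2 (13.4 and 8.48 CPM) lay within 1. The iron exporter Slc40a1 was 6.89 and 15.3 CPM, and its ratio of 1.05 became 0.28 without its top RFP cell.

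The 26 mitochondrial carriers were nearly balanced, with 6 at least 1 higher, 6 at least 1 lower, a median of 0.32 and sums of 3292 and 3430 CPM. The phosphate carrier Slc25a3, which supplies phosphate for ATP synthesis, had cell medians of 941 CPM in GFP and 765 CPM in RFP cells and a log2 ratio of -0.34. Slc25a4 and Slc25a5, which exchange ADP for ATP, differed from each other. Slc25a5 had medians of 986 and 1404 CPM and a ratio of 0.49, while Slc25a4 ran from 0 to 1293 CPM in GFP cells (median 544 CPM) and from 0 to 383 CPM in RFP cells (median 22.96 CPM), with a ratio of -2.69. Both genes stood at 10 CPM or more in 38 of 40 GFP cells and 29 of 55 RFP cells, and 22 RFP cells had Slc25a5 alone. These abundant genes have processed pseudogenes, and how reads shared with such copies were counted was not given in the sources used here, so their levels are uncertain to that extent.

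The aspartate and glutamate exchangers of the malate-aspartate shuttle were higher in the RFP cells. Slc25a12 ran from 0 to 698 CPM in RFP cells (median 84.9 CPM) and from 0 to 112 CPM in GFP cells (median 0), with 38 RFP and 9 GFP cells at 10 CPM or more and sums of 151 CPM in RFP and 7.42 CPM in GFP cells (log2 ratio 4.17). Its highest GFP cell was GFP cell 27, and without that cell Slc25a12 reached 68.1 CPM in GFP cells and had a ratio of 4.35. Its paralogue Slc25a13 was 31.8 and 87.9 CPM, and 28 RFP and 4 GFP cells had both at 10 CPM. Slc25a11, the oxoglutarate and malate carrier of the same shuttle, was close to level at 76.7 and 89.6 CPM. The citrate carrier Slc25a1 was 4.12 against 32.4 CPM, with 16 RFP and 4 GFP cells at 10 CPM or more. The pyrimidine nucleotide carrier Slc25a36 was 75.6 against 220 CPM. Slc25a20, which brings acylcarnitines into mitochondria for fat oxidation, was 27.9 CPM in RFP and 65.5 CPM in GFP cells. The carnitine carrier of the plasma membrane, Slc22a5, lay far lower in RFP cells, at 88.6 against 1.57 CPM, with 1 RFP and 25 GFP cells at 10 CPM or more, and RFP cell 27 held 95.5% of the RFP reads. Slc25a17, a peroxisomal member of the family, and Slc25a40 lay within 1, at 0.68 and 0.92.

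Monocarboxylate carriers move lactate and pyruvate with protons. Slc16a1 was 61.8 CPM in GFP and 95.2 CPM in RFP cells, within 1, and Slc16a3, the form used for lactate export, was 0.537 and 18.7 CPM (log2 ratio 3.68), with 1 GFP and 17 RFP cells at 10 CPM or more. The chaperone Bsg, which brings them to the surface, was 463 and 469 CPM, and the related Emb 23.9 and 285 CPM. The lactate dehydrogenases Ldha and Ldhb, which make and use that lactate, were 28.8 against 1721 CPM and 7.20 against 1992 CPM. Mpc1 and Mpc2, which together form the mitochondrial pyruvate carrier, went the other way, at 56.8 against 13.3 CPM and 107 against 19.7 CPM.

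Of the 6 carriers grouped as sugar families, none was at least 1 higher in the RFP cells and 3 were at least 1 lower. With so few genes nothing is read from these counts. None of the 3 is a glucose carrier by its known role. Slc5a3 and Slc5a11 carry myo-inositol and Slc5a6 carries biotin and pantothenate. Slc5a3 was 12.7 CPM in GFP cells and had no read in RFP cells, at least 1317-fold lower against a floor of 3 reads over the RFP group. Slc5a11 was 30.4 and 2.46 CPM, and Slc5a6 61.3 and 11.7 CPM. The glucose carriers Slc2a8 and Slc50a1 lay within 1, as did Slc45a4.

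Among the phosphate and vesicular carriers, the ubiquitous phosphate importer Slc20a1 was level, at 274 and 264 CPM, and the epithelial phosphate importer Slc34a2 was 47.6 CPM in GFP and 0.173 CPM in RFP cells, with 23 and 1 cells at 10 CPM or more. Slc17a9, which loads nucleotides into vesicles, was 1.42 and 20.4 CPM. Of the ion exchangers, 4 of 5 were lower, among them Slc24a5, which trades calcium for sodium and potassium, at 37.6 and 2.11 CPM. Slc9a7, a Golgi sodium and proton exchanger, had no GFP read and 10.05 CPM in RFP cells, of which RFP cell 17 held 58.5%. The bicarbonate carriers Slc4a7 and Slc4a5 were 0.823 against 25.7 CPM and 0.0268 against 23.3 CPM, higher in the RFP cells. Slc4a11 was 57.5 CPM in GFP and 4.10 CPM in RFP cells, and its ratio of -3.52 became -2.17 without GFP cell 27, the cell set apart above, which held 62.2% of the reads. The cation-chloride carriers Slc12a2 (50.8 and 32.4 CPM) and Slc12a7 (13.9 and 6.57 CPM) lay within 1.

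Choline is the precursor of the main membrane phospholipid. The choline carrier Slc44a1 was 280 CPM in GFP cells (median cell 185 CPM, highest 827 CPM) and 53.7 CPM in RFP cells (median 0.421 CPM, highest 407 CPM), and 36 and 19 cells stood at 10 CPM or more. Slc44a2 was 5.89 and 29.1 CPM, higher in the RFP cells. Slc27a2, which activates long fatty acids, was 0.0268 and 26.4 CPM. Slc33a1, the acetyl-CoA carrier of the endoplasmic reticulum, was 13.8 and 2.18 CPM.

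The 18 nucleotide sugar carriers of family 35 supply glycosylation in the Golgi, and several of the members have no settled substrate. In the RFP cells 4 were at least 1 higher and 7 at least 1 lower, with a median of -0.76 and sums of 461 CPM in GFP and 403 CPM in RFP cells. The CMP-sialic acid carrier Slc35a1 was 16.9 CPM in GFP and 57.8 CPM in RFP cells and the UDP-xylose carrier Slc35b4 6.02 and 63.6 CPM, the latter at 10 CPM or more in 5 GFP and 19 RFP cells. The UDP-N-acetylglucosamine carrier Slc35a3 went the other way, at 34.5 and 7.16 CPM, as did Slc35g1 at 52.1 and 5.38 CPM, with RFP cell 38 holding 73.6% of its RFP reads. Slc35a4 (98.4 and 53.2 CPM), Slc35b1 (59.6 and 60.1 CPM) and Slc35b2 (31.998 and 31.6 CPM) lay within 1. Slc35f2 was 21.3 and 50.8 CPM, a ratio of 1.22 that became 0.77 without its top RFP cell.

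A list of 59 genes that make, use or sense the carried solutes was mixed as well. Of the 56 measured, 50 reached 10 CPM in a group. Of those 50, 17 were at least 1 higher and 9 at least 1 lower in the RFP cells, and their median was 0.22. The shares over all genes at 10 CPM or more were 26.3% and 23.3%. On the side of amino acid use, threonine dehydrogenase (Tdh) was 5.81 CPM in GFP and 272 CPM in RFP cells and Shmt2, which turns serine into glycine in mitochondria, 6.25 and 77.9 CPM. The transferrin receptor Tfrc, which imports iron, was 10.5 and 149 CPM. The creatine kinases Ckb and Ckmt1, which use the substrate of Slc6a8, were low in RFP cells as Slc6a8 was, at 229 against 18.5 CPM and 244 against 2.66 CPM. Gatm, the first enzyme of creatine synthesis, was the reverse, at 0.206 and 13.1 CPM, with 1 GFP and 3 RFP cells at 10 CPM or more. Adenosine deaminase (Ada) was 47.9 and 4.07 CPM. The organic anion carrier Slco4a1 was 0.0447 and 10.8 CPM.

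Gene-start methylation was a readout that did not enter the choice of members. It was taken as methylated over all CpG calls from 1000 bp upstream to 500 bp downstream of the start, in calls pooled from the deposited 200 bp windows. For 100 members RefSeq gave a start, and for the other 32 the gene end with more CpGs was read. The calls behind a member in a library numbered 72 to 2575 (median 653). With 1 library of each kind there was no replicate, and no difference was tested. Whole libraries differed as well, with 78.2% of all calls methylated in MEF, against 66.2% for the Gjb2-35delG ESCs and 38.6% for the Actin-RFP ESCs.

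Levels at the carrier starts were set beside those of all genes read in the cells. The members' median was 17.7% in MEF, against 9.49% for the Gjb2-35delG ESCs and 5.82% for the Actin-RFP ESCs. For the 8136 genes with 10 CPM or more in either group of cells it was 14.6%, 7.85% and 4.89%. Below 20% were 74, 97 and 116 members (56.1%, 73.5% and 87.9%), against 63.7%, 82.6% and 92.9% of those genes. At 50% or more were 19, 12 and 3 members (14.4%, 9.09% and 2.27%), against 8.97%, 5.68% and 1.04%. In each library the members thus had the smaller share of low and the larger share of high starts, as a description with no test. A RefSeq start was read for 100 of the 132 members and for 6650 of the 8136 genes, and a gene end for the rest. Such an end can be the far end of the gene, and the part of this unequal reading in the shares was not tested. Levels were lower in Actin-RFP ESCs than in MEF at 124 of 132 starts (93.9%, the same share as over all genes at 10 CPM or more), and lower than in Gjb2-35delG ESCs at 107 (81.1%, against 83.1%). They were lower in Gjb2-35delG ESCs than in MEF at 100 (75.8%, against 82.3%). The 3 members still at 50% or more in Actin-RFP ESCs were Slc4a7, read at a start 15773 bp inside the gene, and Slc25a46 and Slc66a2, read at gene ends with no known strand.

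**Figure D4:**
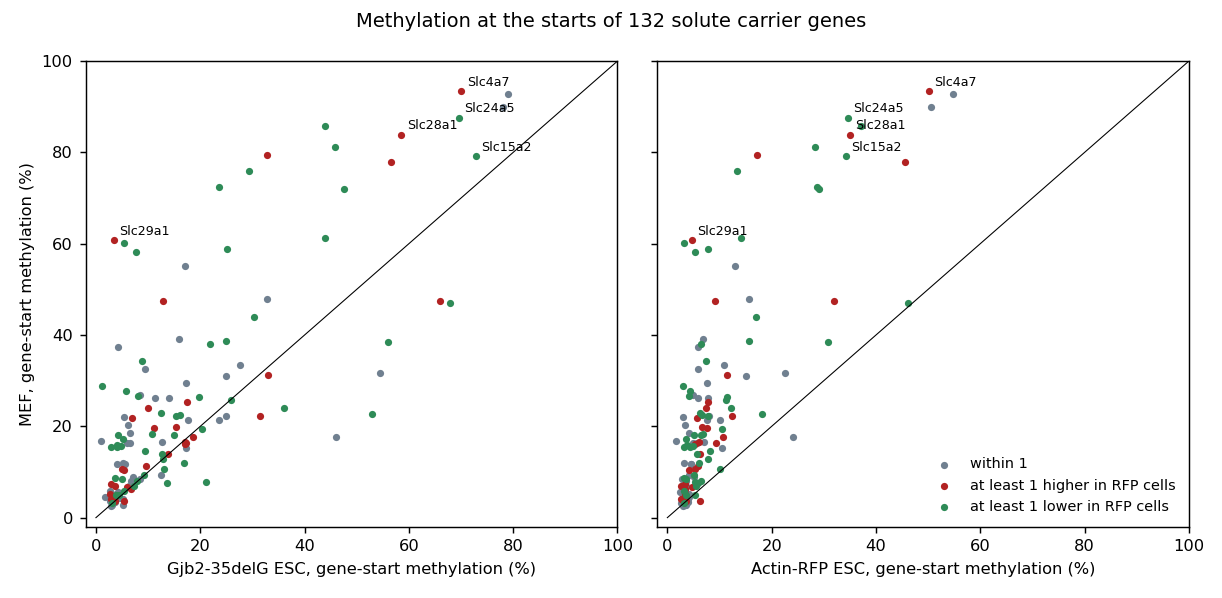
Gene-start methylation of the 132 members in MEF (y axes, %) against Gjb2-35delG ESCs (left) and Actin-RFP ESCs (right), with points coloured by their log2 ratio in the blastocyst cells and lines at equal levels. In the right panel 124 of 132 points lie above the line, and Slc29a1 and, beside it without a name, Slc35g1 stand near 60% in MEF and under 6% in both ESC libraries.

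Methylation of the ESC line was low at the median for members of either direction. In Actin-RFP ESCs the median was 6.33% for the 30 members at least 1 higher in RFP cells, 6.46% for the 52 at least 1 lower and 4.34% for the 50 within 1. In MEF the 3 medians were 17.1%, 22.4% and 15.8%. Over all genes at 10 CPM or more the Actin-RFP ESC medians were 4.92% for the higher, 6.12% for the lower and 4.51% for those within 1. Members with large differences had somewhat higher levels, 7.56% for the 17 at least 3 higher and 8.10% for the 25 at least 3 lower, against 6.41% and 8.50% for all genes past the same limits.

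The promoters printed above show the range. The start of Slc38a2, with 30 CpGs in 250 bases, was at 4.18% in MEF (Wilson interval 2.95 to 5.91%, 717 calls), 2.95% for the Gjb2-35delG and 2.65% for the Actin-RFP ESCs. Slc29a1 and Slc35g1 were high in MEF and low in both ESC libraries at the starts read. For Slc29a1 that was the start with the most CpGs of 8, and the others are not given. Slc29a1 was at 60.8% in MEF (56.2 to 65.1%, 459 calls), 3.41% in the Gjb2-35delG line (2.17 to 5.32%) and 4.74% in the Actin-RFP line (3.38 to 6.62%), and Slc35g1 at 60.1%, 5.31% and 3.14%. Both starts had the same pattern in the cultured lines, and their genes went opposite ways in the blastocyst cells, by 2.0 and -3.06. None of the bisulfite libraries came from the blastocyst cells, and a link between start methylation and level was not tested. Slc28a3 was intermediate, at 38.6%, 24.9% and 15.6%. Slc24a5, with 5 CpGs, was at 87.6% in MEF (83.3 to 90.9%, 291 calls), 69.6% in the Gjb2-35delG line (64.3 to 74.3%) and 34.6% in the Actin-RFP line (30.3 to 39.2%).

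The members with the most extreme expression had unlike starts. Slc15a2 was at 79.1% in MEF, 72.8% in the Gjb2-35delG line and 34.2% in the Actin-RFP line, and Slc7a3, on the X chromosome and read at a gene end, at 77.9%, 56.6% and 45.6%. Slc1a5, also read at a gene end, was at 7.34%, 2.98% and 3.31%, and Slc1a1 at 15.6%, 4.76% and 4.98%. The neighbours on chromosome 15 differed too, with Slc38a1 at 47.4%, 12.9% and 9.05% and Slc38a4 at 61.2%, 43.9% and 14.2%. At 28 of the 132 starts (21.2%, against 16.4% of the genes at 10 CPM or more) the level was highest in the Gjb2-35delG ESCs. Of these, Slc6a13 was at 46.98%, 67.9% and 46.1% in the order MEF, Gjb2-35delG ESCs and Actin-RFP ESCs, and Slc43a3 at 22.7%, 52.97% and 18.1%.

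CpG content of the promoters was counted in the same window as printed above. Over the 100 with a RefSeq promoter, the 250 bases upstream of the start held a median of 17 CpGs, and 79% held 10 or more. Over the 6650 genes at 10 CPM or more with a start chosen in the same way, the median was 17 as well, and 81.6% held 10 or more. At least 1 CG was found in every one of the 100 and in 92.1% of all 32851 RefSeq starts in the table, which were not chosen by CpGs or by reads. The median was 16 for the 23 members at least 1 higher in RFP cells with a promoter in the table, 17.5 for the 42 at least 1 lower and 15 for the 35 within 1.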

How the data were processed

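Expression was measured in 40 GFP and 55 RFP single cells picked with a micromanipulator, per the labels' protocols with a full-length cDNA kit that has no molecular identifiers and with paired-end reads of 150 bp. The submitters' processing notes list, without saying what each was used for, the tools DESeq2 1.30.0, STAR 2.7.3a, deepTools 3.3.1, fastp 0.20.0, StringTie 2.0 and featureCounts 2.0.0 and the genome build mm10. The deposited expression values are a signal, and their steps show that the authors divided gene reads by a factor of each cell. Within 0.01, 100% of the values were whole multiples of a step in each cell, so reads were recovered by dividing by that step, and 0 cells had under 2000 genes. Reads were summed, because a pair of RFP cells dominated the deposited values. By reads 132 carriers reached 10 CPM and by the deposited values 119, of which 118 were shared.

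CPM is relative to all reads of the group or cell. Log2 ratios used a pseudocount of 1 CPM, which understates the change of low genes, and a limit of 1. Poisson (exact) and Wilson intervals are at 95% and cover counting error only, since PCR reads without molecular identifiers are not independent molecules. The lowest read counts of members were mostly even. Whether the mates of a read pair were counted singly was not given in the sources used here. If they were, the Poisson intervals are too narrow even for counting error. No count model was fitted, because each group of cells is 1 sample.

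For methylation the authors deposited, per 200 bp window, a methylation fraction and counts of methylated and unmethylated calls. Only the counts were used, in windows with at least 5 calls. For these libraries the aligner and the caller were not given in the sources used here. Starts and promoters came from RefSeq on GRCm38.p6, the build behind mm10. Where a gene had several starts (19 members) the one with the most CpGs was read, and 11 starts lay more than 1000 bp inside the gene.

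The members and lists were chosen with earlier results of these data known. Substrate classes follow family numbers. Genes named by rule were the 12 highest and 12 lowest ratios among the 62 members detected in 50% or more of the cells of either colour, the most-read member of each class, the 3 members on either side of the threshold, heterodimer partners, families that went both ways and partner genes at least 3 apart. The other genes named were chosen after their values were seen, and 1 item is not reported here. The computation of the ratios and counts past the limit was checked on simulated reads, drawn with Poisson error around the summed GFP profile with planted changes. Cells of a group did not differ there beyond counting error, so nothing about the calls on the real cells follows from it. Alternatives changed the pseudocount, averaging, scaling, filter and windows. Computation used Python 3.11.15, pandas 2.3.3, numpy 2.4.6, scipy 1.17.1 and matplotlib 3.10.9. Not analysed here were the amplicons, the cells of E7.5 embryos, and the blastocyst cells called RFPpos (9), GFPpos (8) and RFPpos-GFPpos (9).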

Additional observations from a re-analysis of the deposited data

How the results depend on the processing

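The direction of the median log2 ratio (-0.62, with 30 members higher and 52 lower) was kept under all 11 alternatives. It was -0.41 with a pseudocount of 10 CPM, -0.57 with the mean over cells of CPM, -0.81 with the mean of log2(CPM + 1), -0.59 without cells over 10% mitochondrial reads and -0.70 with a trimmed-mean scaling. It was -0.31 with no filter on low values (47 higher and 84 lower of 252), -0.66 for the 48 members at 50 CPM or more (11 higher and 21 lower) and -1.56 with the deposited values summed as they are (19 higher). The mean of log2(CPM + 1) also gave 19 higher. Added after seeing the data, thinning all cells to 500000 reads gave -0.59, leaving out RFP cells 6 and 14 gave -0.61 and leaving out GFP cell 27 gave -0.63. Of the 82 members past the limit, 18 came inside it with a pseudocount of 10 CPM, 17 with the mean of log2(CPM + 1), 9 with the deposited values and at most 3 under the other settings. Newly past the limit were 28 with the deposited values and 13 with the mean of log2(CPM + 1). Thinning brought 9 newly past it, the mean over cells of CPM 8, and each other setting at most 2. Slc25a30 reversed to -0.13 and Slc35f2 to -0.08 with the deposited values. The cause was not tested. Slc18a1 changed sign with the mean of log2(CPM + 1).

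Median gene-start methylation in MEF, Gjb2-35delG ESCs and Actin-RFP ESCs was 7.5%, 5.22% and 4.10% with 500 bp on either side, and 22.2%, 15.2% and 7.16% at the other gene end where no strand was known. A minimum of 10 calls gave 5.75% in Actin-RFP ESCs and left the other medians as they were. No paired analysis was possible because the results come from no test and the numbers of the cells only name them. Members with few reads, and those read in few cells, are limited by depth and by the number of cells picked.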
